A study of Mus musculus with 18 samples.

Results

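Mouse embryonic stem cells without their own Dnmt1 and carrying DNMT1 with 3 tryptophan-to-alanine substitutions, W464A/W465A/W796A, were compared with the same knockout cells carrying WT DNMT1. These are 6 of the 18 libraries of the series, 3 per group. The assay was eRRBS, an enhanced form of reduced representation bisulfite sequencing for CpG methylation, in which restriction fragments are treated with bisulfite, so that unmethylated cytosine is read as thymine. In both groups DNMT1 came from the pPyCAGIP vector under puromycin selection. No age applies to the lines, and their sex is not stated here, though every library held chromosome Y reads. The labels do not say whether each of the 3 biological replicates came from its own stable line, so p-values measure the spread between these libraries. No library of knockout cells without DNMT1 is among the 18 of the series, so the level without DNMT1 is not known here. The words loss, lost, kept, retained, residual and went from describe levels against those of the WT rescue, not a change followed over time. Whether methylation was lost or not regained in the triple mutant was not tested.

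DNMT1 is the maintenance methyltransferase: after DNA replication it copies CpG methylation from the old strand to the new one. The W464A and W465A changes lie in its RFTS domain, a module that reads marks on histone H3, and W796A in its first BAH domain, which reads methylated histone H4. DNMT3A and DNMT3B can add methylation to unmethylated DNA and are active in embryonic stem cells. Germline gene promoters are typically methylated in these cells, while imprinted genes carry methylation that was set on 1 parental copy in the germ cells and depends on DNMT1 afterwards.

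Of 21867550 CpGs listed, 2426872 had at least 5 reads in each of the 6 libraries and were used. The libraries held between 59776439 and 138978763 CpG calls, and the median coverage of the CpGs used was between 10 and 22 reads. Reads fell unevenly on chromosomes 8, 11 and Y. Chromosome 11 took 9.03% to 9.58% of the calls in WT replicates 1 and 2 and triple mutant replicate 3, against 6.55% to 6.67% in the other libraries, and chromosome 8 took 7.69% in WT replicate 1 and 6.55% in triple mutant replicate 3, against 5.33% to 5.51%. Chromosome Y took 0.0208% in triple mutant replicate 3 and 0.125% to 0.152% in the others. The mean difference described below was -38.2 points on all chromosomes and -38.2 points on the autosomes other than 8 and 11. Of 16 pluripotency promoters covered, 12 had under 5% in WT. Pou5f1, the gene of Oct4, had 0.837% ± 0.601 in WT and 0.155% ± 0.268 in the triple mutant (SD, n = 3 each). Of the fibroblast markers, Vim had 0.131% ± 0.226 in WT and Col1a1 56.3% ± 8.20, and promoter methylation does not measure expression.

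Sequences that carry the results are shown first, 5′ to 3′, with the CpGs used in capitals. The Dazl promoter (chr17:50293571-50293870, minus strand, RefSeq, GRCm38.p6) stands for germline promoters that lost most of their methylation. The Repin1 window (chr6:48597487-48597786, plus strand, within the coding exon) is a CpG-dense stretch left almost without methylation. The next pair (chr10:82411391-82411690 and chr5:89968356-89968655, plus strand) aligned with each other. They belong to a group, linked by sequence matches, of tiles called as retaining less of their WT level than the genome-wide share. The window 23036 bp from Poc1b (chr10:99083482-99083781, plus strand) is from a tile called as retaining more. Those 4 windows are from the GRCm38 genome.
Dazl promoter: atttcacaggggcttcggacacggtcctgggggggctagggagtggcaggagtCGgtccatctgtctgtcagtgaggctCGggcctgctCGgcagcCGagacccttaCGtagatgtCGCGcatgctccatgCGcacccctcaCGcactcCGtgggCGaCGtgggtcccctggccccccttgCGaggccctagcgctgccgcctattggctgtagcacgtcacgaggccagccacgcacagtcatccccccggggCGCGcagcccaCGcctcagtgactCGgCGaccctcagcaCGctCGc
Repin1 coding exon: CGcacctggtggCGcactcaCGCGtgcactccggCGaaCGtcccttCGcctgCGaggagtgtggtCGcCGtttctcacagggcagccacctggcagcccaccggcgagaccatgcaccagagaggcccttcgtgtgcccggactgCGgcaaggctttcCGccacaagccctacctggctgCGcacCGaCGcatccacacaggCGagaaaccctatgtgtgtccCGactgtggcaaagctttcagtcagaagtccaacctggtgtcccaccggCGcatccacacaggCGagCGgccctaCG
Repeat copy on chromosome 10: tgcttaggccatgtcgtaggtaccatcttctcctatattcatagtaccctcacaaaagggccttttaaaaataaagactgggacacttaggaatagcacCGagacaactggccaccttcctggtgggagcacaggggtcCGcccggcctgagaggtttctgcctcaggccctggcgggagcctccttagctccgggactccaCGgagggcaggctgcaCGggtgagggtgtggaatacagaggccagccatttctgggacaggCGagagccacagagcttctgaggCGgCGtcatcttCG
Repeat copy on chromosome 5: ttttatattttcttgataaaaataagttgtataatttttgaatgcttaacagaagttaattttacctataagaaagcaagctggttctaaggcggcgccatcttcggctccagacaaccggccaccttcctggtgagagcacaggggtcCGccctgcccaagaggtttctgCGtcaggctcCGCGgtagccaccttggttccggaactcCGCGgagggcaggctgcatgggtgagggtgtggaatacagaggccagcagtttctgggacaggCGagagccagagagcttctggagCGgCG
Tile near Poc1b: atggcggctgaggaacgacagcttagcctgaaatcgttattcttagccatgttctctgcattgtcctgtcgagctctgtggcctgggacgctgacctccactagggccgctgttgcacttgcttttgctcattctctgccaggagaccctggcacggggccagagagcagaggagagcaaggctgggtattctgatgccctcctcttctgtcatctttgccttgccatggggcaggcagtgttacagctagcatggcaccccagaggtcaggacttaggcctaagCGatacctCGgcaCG

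The mean methylation level, each CpG counted once, was 47.3%, 59.95% and 57.6% in WT replicates 1 to 3. In the triple mutant it was 16.2%, 18.99% and 15.1%. All 3 triple mutant libraries lay far below all 3 WT libraries, and the highest of them was below the lowest WT library by more than the spread within either group. The mean was 54.95% ± 6.70 in WT and 16.8% ± 2.00 in the triple mutant (SD, n = 3 each), a difference of -38.2 points with an exact two-sided permutation p of 0.1, the smallest that 3 against 3 allows. The size in points moved with the CpGs read: it was -24.7 points at CpGs with at least 10 reads, where the mean WT level was 35.5%, and -7.07 points with at least 20, where it was 9.89%. As a share of the WT level the triple mutant kept 30.5% ± 3.64, 30.4% ± 3.96 and 28.5% ± 4.10 (SD, n = 3 each) at these 3 coverage minimums. This share, the level in a triple mutant library over the mean WT level of the same CpGs, is called the retained share below.

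Fully methylated CpGs were almost absent in the triple mutant. At the 682648 CpGs with at least 10 reads, 12.7%, 29.2% and 26.2% had a level of at least 80% in the WT libraries, and 0.0447%, 0.308% and 0.0574% in the triple mutant libraries. CpGs with no methylated read were 40.9% ± 5.57 of these in WT and 51.6% ± 1.75 in the triple mutant (SD, n = 3 each). CpGs at 20% or less were 52.8% ± 2.31 in WT and 77.7% ± 2.79 in the triple mutant (SD, n = 3 each). In bulk DNA, full methylation in some cells cannot be told apart from a low level in all cells.

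Tiles of 1 kb gave the loss by region. Of 280910 tiles with at least 3 CpGs, 252942 were lower in the triple mutant, which is 90.0% of those tested, in a quasi-binomial F test (Benjamini-Hochberg adjusted p under 0.05, with 10 points or more between the pooled levels). No tile was higher by this test, by limma or by edgeR, while 9, 128 and 109 had an unadjusted p under 0.05 in that direction by these 3 tests. In 252470 tiles, 89.9%, all 3 triple mutant libraries lay below all 3 WT libraries. Among the 233103 tiles with a pooled WT level of at least 50%, 99.7% were called lower. In WT most tiles lay at high levels, with a second, smaller peak of 8.92%, 6.86% and 7.82% of tiles under 5%. In the triple mutant 15.6%, 13.9% and 16.7% of tiles lay under 5%, and a broad second peak at low intermediate levels stood where WT had few tiles.

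**Figure D1:**
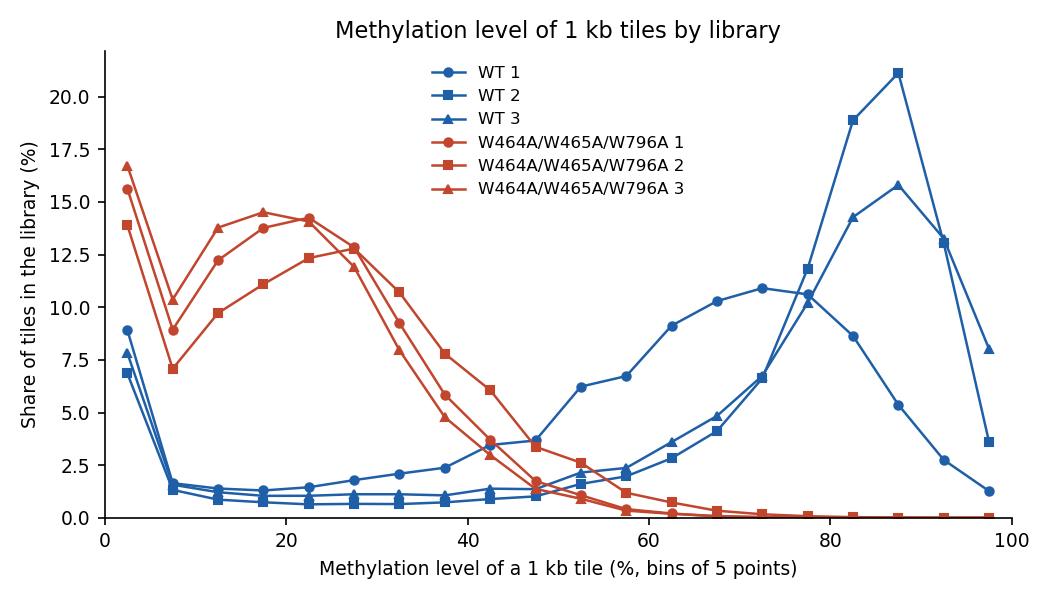
Share of 1 kb tiles (y axis, %) by methylation level (x axis, %, bins of 5 points), 1 line per library, WT in blue and W464A/W465A/W796A in red. The WT lines have their main peak at high levels and a smaller one under 5%, the red lines a peak under 5% and a broad one at low intermediate levels, and 90.0% of tiles were called lower in the triple mutant.

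The 8 tiles with the largest loss were chosen by a rule on the pooled difference and a floor of 20 reads per library. The largest was in an intron of Slc44a5, a gene of the choline transporter-like family (chromosome 3, 154216001 to 154217000), at 92.9%, 93.8% and 94.9% in WT and 3.51%, 6.98% and 2.63% in the triple mutant. In an exon of Nefm, which encodes a neurofilament subunit (chromosome 14, 68122001 to 68123000), the levels were 87.2%, 97.6% and 100% against 3.12%, 8.77% and 0%. Both were nearly fully methylated in WT and nearly unmethylated in the triple mutant, with no overlap between groups. The adjusted p was 2.7e-06 for Slc44a5 and 2.8e-06 for Nefm. An intron of Trp63, the p53 family gene of stratified epithelia, had 94.6% ± 3.19 in WT and 7.87% ± 2.40 in the triple mutant (SD, n = 3 each). A tile 15729 bp from Cylc2, a sperm head protein gene, had 75%, 90.9% and 95.2% in WT and no methylated read in any triple mutant library, over at least 21 reads each. The other tiles by this rule lay in introns of Mpped2 and Rock1, 54669 bp from Gcfc2 and 1998230 bp from Tyrp1, with differences between -87.8 and -87.1 points. All 8 kept their call by limma and without each library in turn.

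Averaged over the classes of CpGs described here, the loss was close to proportional. The promoter and densest classes averaged 4.79% and 8.44% in WT, so their shares mix many nearly unmethylated CpGs with methylated ones. Density was counted as CpGs in a window reaching 250 bp to each side, with the central CpG as 1 of them. At densities of 1 to 5, CpGs had 73.7% ± 8.83 in WT and 20.8% ± 2.15 in the triple mutant (SD, n = 3 each). Those with over 20 had 8.44% ± 1.90 and 2.47% ± 0.455 (SD, n = 3 each). The retained share was 28.4%, 31.1% and 25.3% in the sparsest class and 24.5%, 35.1% and 28.0% in the densest. The log2 ratio of the retained shares, dense over sparse, was 0.05 with an exact two-sided permutation p of 1, and it was -0.03 without WT replicate 3, -0.02 without triple mutant replicate 2 and -0.0025 without its replicate 3. By gene feature the retained share was 29.0% ± 4.58 at promoters (500 bp either side of a transcription start site, TSS), 30.6% ± 4.14 in exons, 31.5% ± 3.65 in introns and 29.3% ± 3.49 between genes (SD, n = 3 each). Promoters against intergenic CpGs gave a log2 ratio of -0.0021 with an exact permutation p of 1. That value was positive at higher coverage, 0.56 at CpGs with at least 20 reads, and between -0.08 and 0.07 without single libraries, so neither order of these contexts held.

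Smaller differences ran the same way in each triple mutant library, except for repeat masking at higher density. CpGs alone within 250 bp kept 24.5%, 26.3% and 21.5% of the WT level, and those with 9 CpGs in the window 31.1%, 36.5% and 29.0%. WT methylation was alike in these classes, 71.5% and 73.0%, so isolated CpGs kept less at a similar WT level. Repeat-masked CpGs kept 28.5%, 31.9% and 26.2%, and unmasked ones of like density (up to 10 CpGs) 30.1%, 34.1% and 27.3%. The log2 ratio was -0.08 with an exact two-sided permutation p of 0.1, the smallest possible, and it stayed negative in each alternative run. At densities of 11 and more, masked CpGs kept 26.4%, 34.1% and 29.0% and unmasked ones 28.9%, 37.2% and 28.3%. Triple mutant replicate 3 thus went the other way there, and the mean WT levels were unlike, 58.2% and 30.1%. By distance to the nearest TSS the retained share was lowest at 500 to 1000 bp, with 23.7%, 28.3% and 22.1%, and highest at 20 to 100 kb, with 30.8%, 36.1% and 28.6%. Restricted to CpGs with up to 10 CpGs in the window, these were 25.2% ± 2.51 and 31.6% ± 3.54 (SD, n = 3 each). The mean WT level differed between these distances, at 16.9% and 71.3%, and at 55.8% and 74.8% in the restricted set. The part of the WT level in this pattern was not tested. The patterns of single densities and of distance were seen in the values and have no test.

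**Figure D2:**
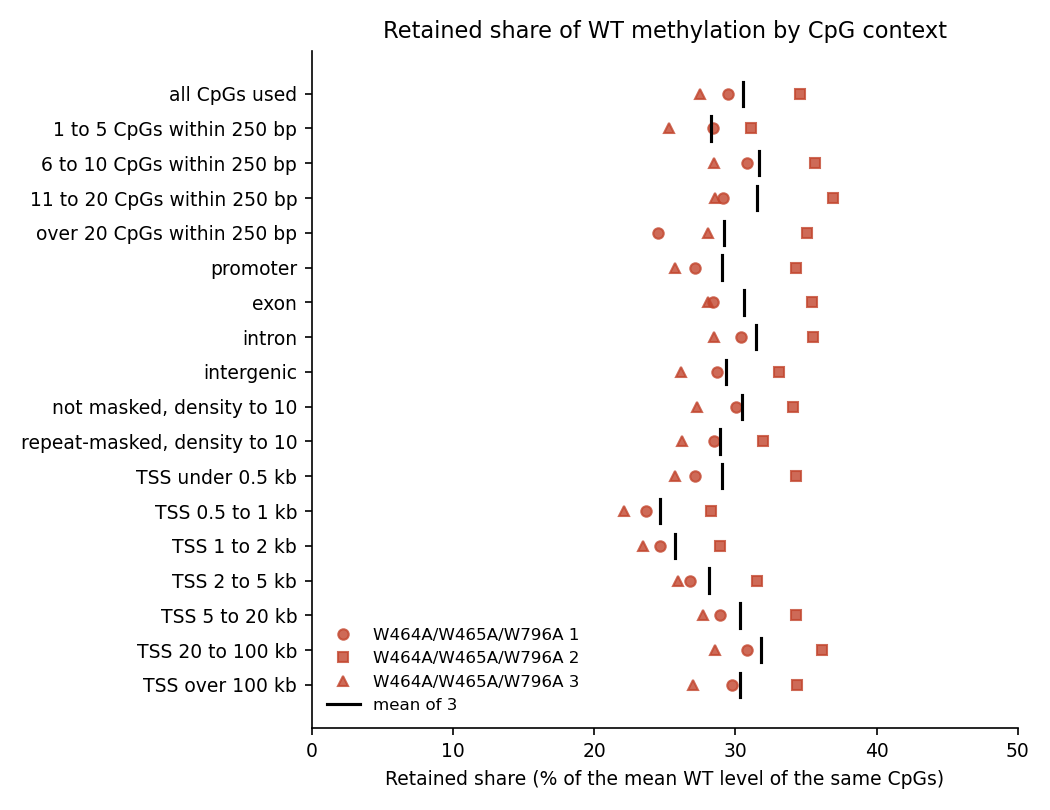
Retained share (x axis, % of the mean WT level of the same CpGs) by CpG context (y axis), 1 marker per triple mutant library and a black bar for their mean. Most contexts lie near the 30.5% of all CpGs, CpGs at 500 to 1000 bp from a TSS have the lowest mean shown, and triple mutant replicate 2 is the highest of the 3 libraries in every context shown.

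Among tiles with a WT level of at least 50%, the retained share rose with that level. To keep noise of WT out of the comparison, tiles were binned by some WT libraries and their share was computed against the others. Binned by WT replicates 1 and 3 and set against WT replicate 2, tiles at 50 to 70% kept 24.9% ± 3.40, tiles at 70 to 85% kept 30.4% ± 3.47 and tiles at 95 to 100% kept 37.2% ± 3.89 (SD, n = 3 each). Binned by WT replicate 2 and set against the other WT libraries, the shares were 28.5% ± 4.16, 31.3% ± 3.84 and 36.9% ± 3.95 (SD, n = 3 each). Both ways the share rose from bin to bin above 50%. Below that the binnings gave unlike values: 15.5% ± 3.82 and 26.1% ± 6.16 at WT levels of 10 to 30%, 14.0% ± 3.89 and 31.4% ± 7.01 at 2 to 10%, and 24.8% ± 3.38 and 57.8% ± 4.79 at 0 to 2% (SD, n = 3 each). In the lowest bin the reference level was 1.63% and 0.575%, and no order was read there. These values describe the tiles and have no test.

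**Figure D3:**
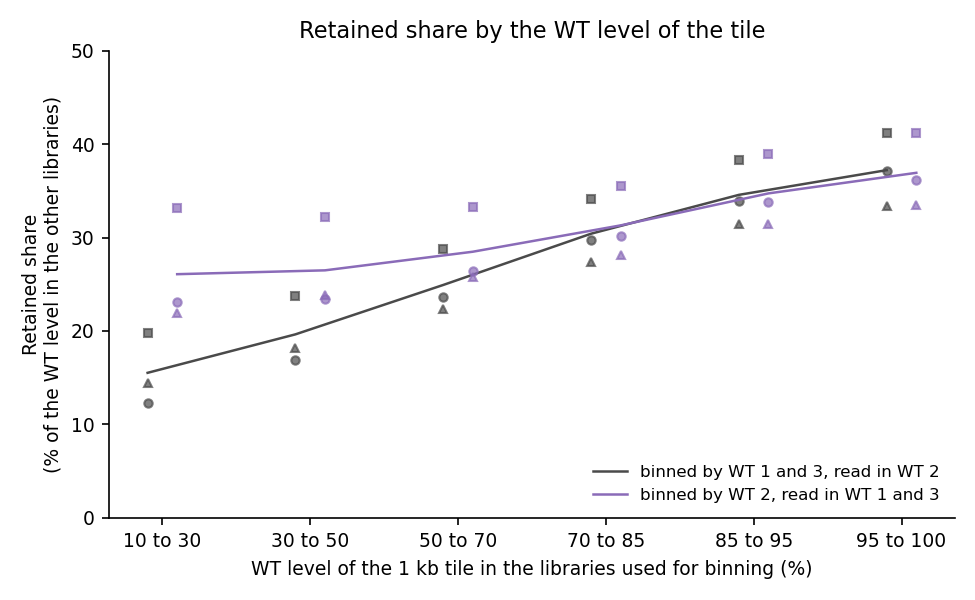
Retained share (y axis, %) by the WT level of the 1 kb tile (x axis, %), for 2 ways of separating the WT libraries used for binning from those used as the reference. Markers are the 3 triple mutant libraries (circle, square and triangle for replicates 1 to 3) and lines their mean. Both lines rise from 50 to 70% to the highest WT bin.

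Residual methylation was intermediate rather than absent or full. In the 118671 tiles with a pooled WT level of at least 80%, the pooled triple mutant level had a median of 27.5%, with 90% of tiles between 13.8% and 44.1% (the 5th and 95th percentiles). All 3 triple mutant libraries were at 50% or more in 374 of these tiles, and the pooled level was at most 5% in 147. The differences among tiles recurred across libraries. Of 127569 tiles with a WT level of at least 50% and no library under 30 reads, the 1275 highest in triple mutant replicate 1 read 44.7% and 37.5% in replicates 2 and 3, against 27.6% and 22.0% over all these tiles. The 1275 lowest in replicate 1 read 12.6% and 9.88%. In WT replicates 1 to 3 the highest tiles read 79.8%, 88.8% and 88.6%, and the lowest 47.5%, 72.9% and 60.4%. All these tiles read 66.7%, 82.5% and 79.9% there, so the highest and lowest sets also differed in WT. Tile levels correlated between triple mutant libraries with Pearson r of 0.496 to 0.555 across tiles, and between a WT and a triple mutant library with 0.330 to 0.466. Tiles share library and depth and are not independent, so these r are descriptions.

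A test asked which tiles departed from a proportional loss, against a genome-wide retained share of 30.7% over tiles with a WT level of at least 50%. Of 233103 tiles, 1274 kept at least 1.5 times that share, 0.547% of those tested, and 62 kept at most that share divided by 1.5, 0.0266%, at an adjusted p under 0.05. These calls rest on few libraries: without single libraries the first count ranged from 7 (without triple mutant replicate 3) to 6996 (without WT replicate 1), and it was 12, 76, 245 and 2167 without triple mutant replicate 1, its replicate 2, WT replicate 3 and WT replicate 2. The second was 0 without each of the 3 triple mutant libraries in turn, 14 without WT replicate 3, 384 without WT replicate 2 and 1054 without WT replicate 1. Limma on the log2 level called 0 and 6. At an unadjusted p under 0.05 the quasi-binomial test had 20192 and 6757 tiles, and limma 18681 and 21259. Tiles in the first set had 52.3% ± 2.95 in the triple mutant and 86.1% ± 3.65 in WT (SD, n = 3 each), values that chose them. In the W464A/W465A libraries, which did not, they read 42.6%, 47.4% and 42.4%, against 22.9%, 28.2% and 22.8% over all tiles with a WT level of at least 50%.

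The tile with the highest lowest library lay 9592 bp from CK137956 (chromosome 4, 127917001 to 127918000), at 66.7%, 81.2% and 92.3% in WT and 81.0%, 71.4% and 67.6% in the triple mutant. Here the groups overlapped. The tile near Poc1b, a centriole protein gene, had 84.8%, 97.6% and 100% in WT and 75.9%, 74.4% and 66.7% in the triple mutant, and its 3 used CpGs lie near the 3′ end of the sequence shown above. An intron of Pced1b had 87.7% ± 5.22 and 66.9% ± 2.502, and an intron of Lrrc8d, which encodes a subunit of volume-regulated anion channels, 88.2% ± 6.05 and 68.7% ± 5.50 (SD, n = 3 each). The other tiles by the rule lay between genes, 440118 bp from Tshz3, 128523 bp from Barhl2, 76719 bp from Il20rb and 89206 bp from Ppp2r3a, with triple mutant means between 62.8% and 74.1%. Each rests on 3 to 7 CpGs, and each of the 8 lost its call under 3 to 5 of the 7 alternatives (limma and each library left out), with an adjusted p of up to 0.326 in the quasi-binomial or limma tests. The groups overlapped at Tshz3 too, at 96.7%, 88.9% and 81.0% in WT against 64.1%, 86.7% and 71.4%. The tiles near CK137956, Tshz3 and Barhl2 were not called lower than WT (quasi-binomial F test, adjusted p 0.529, 0.055 and 0.067).

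The 62 tiles called as retaining less kept 2.46% to 19.6% of the WT level. They are those that passed the test and not simply the lowest: 1% of the 233103 tiles kept under 8.53%. The Cylc2 tile above, without a methylated read in the triple mutant, did not have this call. Of the 62, 8 lay in mostly unmasked sequence. The tiles named from these 62 were chosen after their values were seen. The lowest was in the coding exon of Repin1, a zinc finger gene (chromosome 6, 48597001 to 48598000), at 40.7%, 56.6% and 50.1% in WT and 0.759%, 0.464% and 2.59% in the triple mutant over 37 CpGs and at least 641 reads. The sequence above shows how closely its CpGs are spaced. A tile at the promoter of Pcdha8, in the clustered protocadherin alpha locus of neuronal adhesion molecules (chromosome 18, 36992001 to 36993000), went from 76.1% ± 9.84 to 2.40% ± 1.46 (SD, n = 3 each). An exon of Cdh15, the M-cadherin gene, went from 64.5% ± 6.99 to 2.38% ± 0.946, and one of Mpzl2, an adhesion molecule gene, from 76.2% ± 6.71 to 6.20% ± 4.16 (SD, n = 3 each). The tiles at Adat3 and at Zfp13 had 4.69% ± 0.828 and 4.88% ± 2.14 in the triple mutant (SD, n = 3 each). Groups did not overlap in any of these tiles. The Repin1, Pcdha8, Cdh15, Mpzl2 and Adat3 tiles each lost the retention call in at least 5 of the 7 alternatives, though each stayed lower than WT in the test of the difference, with adjusted p between 1.6e-07 and 6.1e-07.

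The other 54 tiles were mostly repeat-masked, against 11.01% of all tiles with a WT level of at least 50%, and 44 of the 62 were linked by sequence matches. The 62 tiles were also deeper and denser, with a median of 2473 reads over the 6 libraries and a density of 23.7, against 333 reads and 8.0, and the part of depth in the calls was not tested. Of the 62, 2 lay on chromosome Y. The 300 bp windows with the most CpGs used were compared by blastn, and matches at an E-value under 1e-20 joined 44 into 1 group. Members need not all match each other: the chromosome 10 and 5 windows matched 14 and 12 others of the group. None of the 8 unmasked tiles matched another. The windows from chromosomes 10 and 5 shown above aligned over 190 bp with 88.9% identity. On chromosome 10 the tile had 80.0%, 75.8% and 82.4% in WT and 4.18%, 4.84% and 4.15% in the triple mutant, and on chromosome 5 it had 74.8%, 70.7% and 73.2% against 4.32%, 5.39% and 5.14%. The name of this repeat was not given in the annotation used here. Copies are alike, so reads could be assigned to the wrong copy, and the levels may mix copies.

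Other copies were then looked up by sequence alone, a step added after the 62 tiles were seen. A further 1297 tiles with a WT level of at least 50% matched the 44 windows over at least 150 bp, with a median best identity of 93.7%. They had 70.5%, 81.8% and 81.3% in WT, close to the 67.1%, 82.5% and 80.6% of all such tiles. In the triple mutant they had 14.7%, 18.6% and 15.6%, against 23.5%, 27.4% and 21.9%. Each triple mutant library was thus lower on the copies, with a mean retained share of 20.9% ± 2.63 against 31.6% ± 3.70 (SD, n = 3 each). The 4958 other mostly masked tiles with a mean density over 15 CpGs kept 30.5% ± 4.11, and the 630 copies of that density 18.6% ± 2.81 (SD, n = 3 each). Of the 1297 copies 58.3% kept under 20%, and of those 4958 tiles 18.7%. In the W464A/W465A libraries the copies had 10.4%, 16.1% and 9.91%, against 22.9%, 28.1% and 22.8% for all tiles. In the W465A/W796A libraries they had 52.3%, 45.8% and 47.2%, against 61.3%, 54.2% and 53.7%. These are descriptions without a test, since the 44 windows were chosen from tiles low in these libraries.

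**Figure D4:**
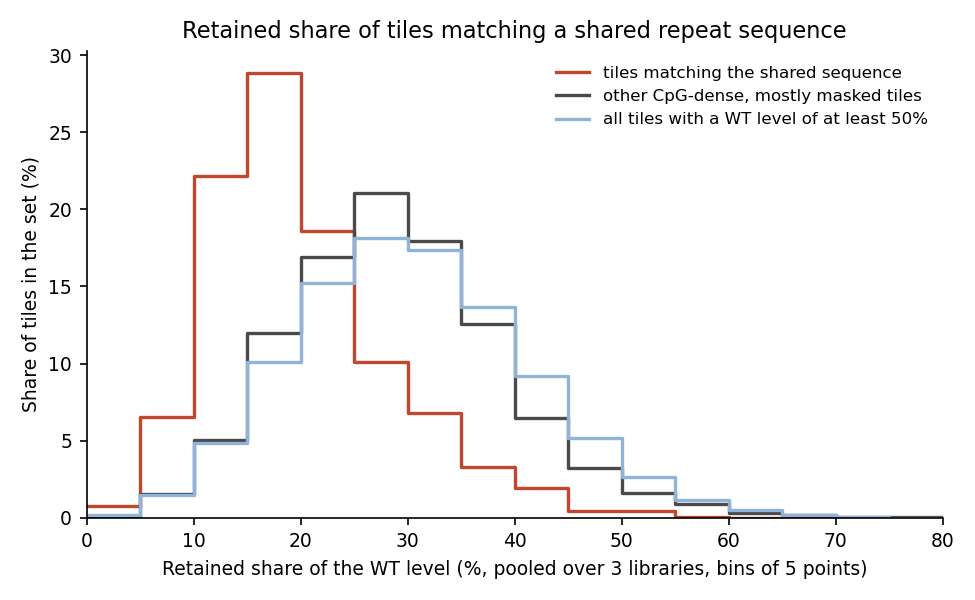
Share of tiles (y axis, %) by retained share of the WT level (x axis, %, bins of 5 points) for the 1297 tiles matching the shared repeat sequence (red), the 4958 other CpG-dense, mostly masked tiles (grey) and all 233103 tiles with a WT level of at least 50% (blue). The red line lies left of the other lines, with 58.3% of its tiles under 20% against 18.7% of the grey ones.

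Promoters were tested as 500 bp either side of the TSS. Of 14257 promoters, 2278 were lower in the triple mutant, 16.0% of those tested, and none was higher by the quasi-binomial test or by limma, with 42 and 67 at an unadjusted p under 0.05. Most promoters had nothing to lose: 10966 had under 5% in WT. Of those with at least 50% in WT, 98.9% were lower. The median retained share was 17.6% for promoters at 10 to 30% in WT, 18.1% at 30 to 50%, 22.3% at 50 to 70% and 28.1% at 70 to 100%. It was 18.3% at 5 to 10% and 52.2% under 5%, where the median WT level was 0.443%. The largest loss was at Spin2g, of the spindlin family, with 87.9%, 92.5% and 77.8% in WT and 16.7%, 0% and 0% in the triple mutant over 3 CpGs. At Lcn2, which encodes the iron-siderophore binding protein lipocalin 2, the levels were 87.0%, 89.4% and 95.6% against 10%, 9.38% and 10%. The groups were far apart at both. The adjusted p was 0.00042 for Spin2g and 2.3e-05 for Lcn2. Catspere2, 4930430A15Rik, Pcdha8, Pjvk, Abca4 and H60c completed the 8 by the rule, with differences between -80.1 and -76.8 points, and all 8 kept their call in every alternative run for them.

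Germline gene promoters lost methylation together. Of 30 listed genes, 25 had a covered promoter and 22 were lower, 88.0%, where the background over all promoters was 16.0% and over promoters with at least 30% in WT 97.6%. All 25 had at least 10% in WT, and of all promoters with at least 10% in WT 89.2% were lower, so the count is near its background. Their mean level was 44.0%, 64.9% and 53.2% in the WT libraries and 13.1%, 22.0% and 14.6% in the triple mutant, and the median retained share was 24.9%. Dazl, an RNA-binding protein of germ cells, had 63.9%, 84.9% and 78.0% in WT and 17.4%, 31.0% and 15.9% in the triple mutant over 39 CpGs (adjusted p 0.00015). At 37 of these 39 CpGs all triple mutant libraries were below all WT libraries, and the means of single CpGs in the triple mutant ran from 3.94% to 47.8%. In the Dazl sequence above, the CpGs in capitals had a mean of 79.3% in WT and 24.0% in the triple mutant. Whether single DNA molecules kept full methylation cannot be read from such means.

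The other germline genes followed by function. Of the piRNA pathway and its partners, Asz1 had 72.9% ± 7.24 in WT and 21.7% ± 3.17 in the triple mutant, and Mov10l1, an RNA helicase, 77.5% ± 15.1 and 38.5% ± 10.5 (SD, n = 3 each). Piwil2, a PIWI protein that binds piRNAs, had 44.4%, 73.5% and 47.2% against 12.8%, 17.0% and 15.4%. Of the meiotic chromosome axis, Sycp3 went from 55.7% ± 9.15 to 17.5% ± 3.74 and Hormad1 from 52.1% ± 18.8 to 14.4% ± 7.95 (SD, n = 3 each). Tex101, a sperm membrane protein gene, had 52.3%, 82.5% and 90.4% against 18.5%, 20.6% and 9.42%, and Dpep3, a testis dipeptidase gene, 81.8%, 88.9% and 93.4% against 27.8%, 36.0% and 34.3%. Dpep3 was thus the best methylated of the list in WT and kept 36.3% of its WT level. Not called were Ddx4 (20.8% ± 13.4 against 8.15% ± 7.53, adjusted p 0.12), Sycp1 (27.3% ± 5.28 against 12.1% ± 8.36, adjusted p 0.076) and Pnldc1 (11.8% ± 12.3 against 1.61% ± 0.759, adjusted p 0.052; SD, n = 3 each). The calls of Hormad1 and Mov10l1 were lost in 1 of 7 alternatives and that of Rpl10l in 3.

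Imprinted genes with a maternal mark were mostly unmethylated at the promoter window already in WT: 11 of 16 covered had under 5%. Lower were 4 of 16, 25% against the 16.0% of all promoters, and the median retained share of these 4 was 7.47%, where promoters at 10 to 30% in WT had 17.6%. Nnat, a neuronal proteolipid gene, had 38.7%, 13.6% and 14.8% in WT and 1.30%, 0% and 0% in the triple mutant over 28 CpGs. At 23 of these CpGs no methylated read was seen in the triple mutant. Peg13, a non-coding RNA gene, had 3.65%, 26.5% and 11.3% against 0.154%, 2.17% and 0.146%. At 1 of its 17 CpGs all triple mutant libraries were below all WT libraries, and 14 had no methylated read in the triple mutant. At Nnat all triple mutant libraries were below all WT libraries at 21 of 28. Gnas, the gene of a stimulatory G protein subunit, had 13.7% ± 4.74 against 1.89% ± 1.25 (SD, n = 3 each). Mest had 35.8%, 44.8% and 61.5% in WT and 8.72%, 8.26% and 3.33% in the triple mutant. Its window is at the TSS chosen as described below (chromosome 6, 30733506). The RefSeq promoter ending at 30738099, downstream of it, had 5.52% in WT and 0.833% in the triple mutant over 4 CpGs. The Mest value is thus that of the upstream start. In the other 12 genes the triple mutant mean was at most 0.810%, except in Slc38a4, where triple mutant replicate 2 had 11.8% and all other libraries at most 1.02% (adjusted p 0.13, not called). With a paternal or secondary mark, the highest pooled WT level of 6 genes was 7.56%, so none could be called lower, and 2 were lower at an unadjusted p under 0.05. Meg3 had the highest level, 6.37% ± 2.63 against 0.230% ± 0.398 (SD, n = 3 each).

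**Figure D5:**
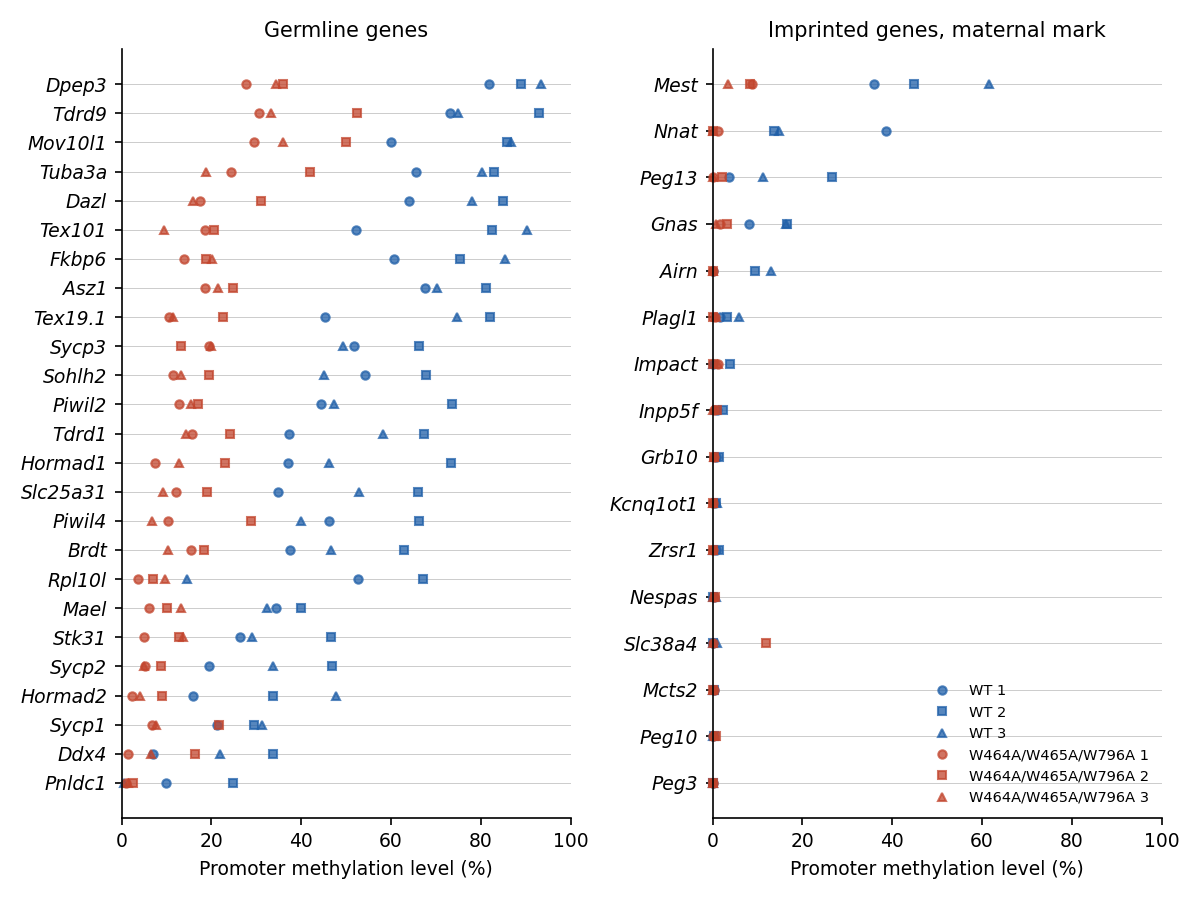
Promoter methylation level (x axis, %) of the 25 covered germline genes (left) and the 16 covered imprinted genes with a maternal mark (right), ordered by WT mean, WT libraries in blue and triple mutant libraries in red, 1 marker shape per replicate. In 22 germline and 4 imprinted genes the red markers were lower by the test, and most imprinted promoters lie near 0 in both groups.

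Promoters of the other lists were mostly low already in WT. Of the 16 pluripotency promoters, 0 were called by the quasi-binomial test or limma, against 16.0% of all promoters, with 8 lower at an unadjusted p under 0.05. Only 3 had at least 10% in WT, so the others could not fall by the 10 points a call needs. Dppa2 had 0%, 50% and 13.3% in WT, so WT replicate 2 stood apart there, and 2.38%, 6.67% and 2.22% in the triple mutant (adjusted p 0.096). Prdm14 had 5.31%, 34.5% and 4.76% against 3.03%, 4.30% and 1.82%. Of 22 genes of the methylation machinery, which include the writers and readers of methylated CpGs, the highest pooled WT level was 7.03%, so none could be called lower, and 2 were lower at an unadjusted p under 0.05. Uhrf1, the partner that brings DNMT1 to replicated DNA, had 3.33% ± 1.06 in WT and 2.24% ± 0.669 in the triple mutant (SD, n = 3 each). Of 8 trophoblast genes, 2 were called, 25% against 16.0% of all promoters, and these were the 2 with at least 10% in WT. Elf5, a transcription factor of the trophoblast lineage, had 40.0%, 83.7% and 76.5% against 22.6%, 24.4% and 32.4%, and Hand1 38.3% ± 13.5 against 11.9% ± 1.61 (SD, n = 3 each). The call of Elf5 was lost in 2 of 7 alternatives, with an adjusted p of up to 0.106.

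Of 19 olfactory receptor promoters 17 were lower and of 38 keratin promoters 32, with mean levels of 68.8% ± 11.5 and 63.9% ± 10.8 in WT and 16.4% ± 1.63 and 22.1% ± 3.17 in the triple mutant (SD, n = 3 each). Of 35 Hox promoters 8 were lower, of 310 zinc finger gene promoters 34, and of 77 ribosomal protein gene promoters 5. These compare with 16.0% of all promoters, and with 89.2% of those with at least 10% in WT, a class that holds all 19 olfactory receptor and 35 of the keratin promoters, so the first 2 counts are near their background. At the other end 256 of the zinc finger and 72 of the ribosomal protein gene promoters had under 5% in WT. The median retained share of members with at least 10% in WT was 32.8% for keratins, 25.2% for Hox genes, 19.4% for olfactory receptors and 7.21% for clustered protocadherins, beside 22.4% for all such promoters. That 22.4% is not matched for WT level: the median over all promoters was 17.6% at 10 to 30% in WT and 28.1% at 70 to 100%. The 16 protocadherin promoters with at least 10% in WT kept between 0% and 55.9%. Of 33 protocadherin promoters 12 were lower. Pcdha7 and Pcdha9 went from 53.2% and 36.0% in WT to no methylated read in any triple mutant library, and Pcdhb2, in the beta cluster, went from 41.3% to 10.1%. The protocadherin genes named here were chosen after their values were seen, and whether these families differ from others was not tested.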

How the data were processed

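The authors deposited counts of methylated cytosine calls and of all calls per CpG for each library. Reads were processed with cutadapt 1.2.1, Bismark 0.18.1 and Bowtie 1.2 on GRCm38/mm10, per the submitters' processing notes. How PCR duplicates were treated is not given in the sources used here, so counts are not independent molecules and tests rest on the spread between libraries. Groups follow the labels. CpGs with at least 5 reads in all 6 libraries were kept, and the level is methylated over all calls. Tiles (1000 bp, at least 3 CpGs), promoters and gene bodies (at least 10 CpGs) were tested with a quasi-binomial F test whose dispersions were moderated as in limma 3.58.1 (squeezeVar). Promoters were 500 bp either side of the gene's TSS with the most annotated transcripts, the most upstream where these tied. Calls needed a Benjamini-Hochberg adjusted p under 0.05 and 10 points of difference. Retention was tested where WT had at least 50%, at a ratio of 1.5 to the genome-wide share. The retained shares of single tiles in that test include a pseudocount of 0.5 methylated reads per group. The script was tested on simulated data. Single values were compared with an exact two-sided permutation test, whose smallest p is 0.1.

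Named items were the 8 tiles and the 8 protein-coding promoters called lower with the largest pooled difference and no overlap, the 8 tiles retaining more with the highest lowest triple mutant library (tiles with at least 20 reads in every library), and listed promoters. Members and lists were chosen with earlier results of these data known. Alternatives were other coverage minimums, tile sizes and windows, limma, edgeR 4.0.16, a fit with a replicate block, and every library left out in turn. Sequence matches used blastn 2.17.0 (E-value 1e-20, alignments of at least 150 bp). Python 3.11.15 with numpy 2.4.6, scipy 1.17.1, pandas 2.3.3 and matplotlib 3.10.9, and R 4.3.3, were used. Promoter sequences are from RefSeq (GRCm38.p6).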

Additional observations from a re-analysis of the deposited data

How the results depend on the processing

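The loss kept its direction under every alternative run, while its size followed the CpGs read. Tiles called lower numbered 48846 and 2589 at coverage minimums of 10 and 20, where fewer tiles were tested, 612378 with 1 CpG per tile allowed, 251567 by limma, 252679 by edgeR and 241520 to 255222 without single libraries. Without a minimum difference 7 tiles were higher. Promoters called lower numbered 865 at a minimum of 10 reads, 3723 with 1000 bp either side of the TSS, 2094 by limma and 1833 to 2485 without single libraries. Calls on retention were unstable, and the cause was not tested. Tiles retaining more and less numbered 203 and 11 at a minimum of 10 reads, 233 and 9 in tiles of 5 kb, 0 and 6 by limma, and 7 to 6996 and 0 to 1054 without single libraries. With the median tile ratio as the share, 2215 retained more. Gene bodies retaining more and less numbered 0 and 0, 23 and 318 by limma, and 0 to 5 and 0 to 1 without single libraries, and 2 retained more at a minimum of 10 reads. Limma with each library centred on its median, chosen after seeing the data, called 0 and 24 tiles and 29 and 211 gene bodies. Dense against sparse CpGs ranged from -0.026 to 0.18 (log2) without single libraries. Promoter against intergenic CpGs ranged from -0.079 to 0.073, and was 0.10 and 0.56 at coverage minimums of 10 and 20 and 0.29 with each read counted once. Same-numbered WT and triple mutant libraries did not vary together from place to place in the genome (r 0.0083, 0.029 and -0.071). Such an r ignores a shift of a whole library, so a shift shared by same-numbered libraries was not tested. Replicate 2 had the highest mean level in both groups, 59.95% in WT and 18.99% in the triple mutant. The lowest was replicate 1 in WT and replicate 3 in the triple mutant. With the replicate block the quasi-binomial test called 252577 tiles and 2228 promoters lower. Limma with that block called 0 and 0 tiles and 50 and 396 gene bodies as retaining more and less. The mean difference had a sign-flip permutation p of 0.25, the smallest 3 pairs allow.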

Other observations

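Gene bodies, read from 1000 bp past the TSS, kept a median of 29.3% of their WT level over the 11795 genes with at least 50% in WT. The quasi-binomial test called 0 as retaining more and 0 as retaining less, 0% of those tested in either direction, with 268 and 38 at an unadjusted p under 0.05, while limma called 23 and 318. The genes named here were chosen after their values were seen, from limma with each library centred on its median. The body of Krt19, a keratin of simple epithelia, had 75.3%, 88.1% and 89.3% in WT and 43.2%, 46.6% and 38.7% in the triple mutant. Bodies of Ggta1, Slc25a47, Cckar and Nsun7 kept 49.6%, 47.7%, 47.3% and 46.8%. At the other end, Repin1 kept 3.46%, Frat2, a regulator of GSK3, 7.41%, and Rpl7a, of the large ribosomal subunit, 7.64%. By family the median was 32.8% for 30 keratin genes, 26.4% for 196 zinc finger genes and 23.9% for 25 vomeronasal receptor genes. Of the vomeronasal genes 20 lay below the median of all bodies. No test was made between families.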
